A study of Mus musculus with 18 samples.

Results

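Imprinted genes are usually expressed from only one parental copy, and 38 of them were followed here in single mouse 2-cell embryos. The 38 genes were chosen by name from a list, 25 usually expressed from the paternal copy, 11 from the maternal copy and 2, Gnas and Ddc, from both or by isoform. Of these, 32 had a probe set of their own on the array, among 19935 genes that did and 28815 probe sets in all. Snrpn, Gnas and Ube3a were present only in probe sets that name several genes, and H19, Kcnq1ot1 and Zrsr1 were not named in the platform annotation used here, so no value is given for these 6. The remaining 32 comprised 22 paternal-copy genes, 9 maternal-copy genes and Ddc, each with 1 probe set.

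The 18 embryos were products of natural matings of inbred 129SVE mice and each was hybridized to an array of its own. Mothers were wild-type throughout. The 9 wild-type (WT) embryos came from 3 wild-type males (fathers WT1, WT2 and WT3) and the 9 Parg(110)-/+ embryos from 3 Parg(110)-/- males (PargA, PargB and PargC), with 3 embryos per father, and an embryo is written as its father and number, as in PargB-1. The product of Parg, a glycohydrolase, degrades the poly(ADP-ribose) chains that PARP enzymes attach to proteins, and exons 2 and 3 are missing from the disrupted allele. All embryos of these sires are heterozygous, so the father's sperm and the embryo's own genotype cannot be told apart. Embryos of one male share that father, and the sources used here do not say which embryos shared a mother.

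Most imprints are DNA methylation marks, laid down in the parents' germ lines, that survive the genome-wide demethylation after fertilization, and a few, such as those of Slc38a4, Sfmbt2, Gab1 and Jade1, rest on a histone mark carried by the oocyte's copy. The paternal copy of such a gene may be silent while the maternal copy is read, or the reverse, and many members act on fetal and placental growth. At the 2-cell stage the embryo still carries RNA stored by the oocyte while its own genome begins to be transcribed. Both parental genomes here are of the same strain and the array does not distinguish alleles, so which copy gave the RNA was not measured. "Paternal-copy" and "maternal-copy" name only what is known of these genes in other tissues and stages.

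The values are log2 probe set signals after RMA, the robust multichip average. The median value of an array was between 6.34 and 6.53. Marker genes of the oocyte were above background in all embryos for 12 of 12 genes, and so were 5 of the 6 measured markers of the 2-cell stage. None of 5 blood markers exceeded background in any embryo, while 2 of 8 cumulus and oviduct markers and 1 of 6 sperm markers did so in all 18. The sperm markers Prm1 and Tnp2 exceeded it in 17 embryos, and Inhba, a cumulus and oviduct marker, in 9. Between genotypes, 4 of the 8 cumulus and oviduct markers were higher in Parg(110)-/+ embryos at an unadjusted p under 0.05 (Ptgs2, Has2, Col1a2 and Inhba), against 8.96% of all probe sets, and none was called. Ptgs2 and Has2 were above background in no embryo. The higher mean was in Parg(110)-/+ embryos for 6 of these 8 markers, 5 of 5 blood and 6 of 6 sperm markers, against 67.1% of all probe sets, with 1 blood marker (S100a8) and 1 sperm marker (Prm1) at an unadjusted p under 0.05. The mean level of the 8 cumulus and oviduct markers lay between 5.93 and 6.24 in WT and between 6.07 and 6.33 in Parg(110)-/+ embryos, and their part in the values below was not tested. The Parg probe set, whose position relative to the deleted exons is not given in the sources used here and which therefore does not check the labels, lay between 9.55 and 10.89 (median 10.62) in WT and between 9.37 and 10.83 (median 10.26) in Parg(110)-/+ embryos. The difference was -0.32 ± 0.20 (SE, adjusted p = 0.571, limma).

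To decide which imprinted genes were detected, each value was set against the 95th percentile of 1035 probe sets for olfactory receptors, genes known for their role in the nose epithelium. This cut was between 6.28 and 6.65 over the 18 arrays, with a mean of 6.43 in WT and 6.53 in Parg(110)-/+ embryos, so it was not the same for both genotypes. The study reports precocious expression of individual olfactory receptor genes in embryos of Parg-disrupted fathers. Whether some of the receptors behind the cut are transcribed in the embryos was not tested here. The part of such expression in the difference between the cuts was not tested either. The cut stands for a low signal, not for absence. Above it in all 18 embryos were 13 of the 32 genes (40.6%), against 37.0% of all probe sets. These were Usp29, Mest, Jade1, Peg12, Plagl1, Dlk1, Igf2 and Rtl1 among the paternal-copy genes and Igf2r, Phlda2, Cdkn1c, Slc22a18 and Cd81 among the maternal-copy genes. That is 8 of 22 paternal-copy genes (36.4%) and 5 of 9 maternal-copy genes (55.6%). Another 6 genes exceeded the cut in some embryos only: Impact and Peg10 in 17, Gab1 and Grb10 in 16, Meg3 in 9 and Peg3 in 7. The other 13 genes (40.6%, against 35.7% of all probe sets) did so in none: Magel2, Ndn, Mkrn3, Nnat, Nap1l5, Inpp5f, Dio3, Sgce, Slc38a4, Sfmbt2, Ascl2, Zim1 and Ddc. Probe sets differ in how well they bind, so levels are not compared between genes, and a value under the cut does not show that a gene is silent. With the array's own median, which does not use these receptors alone, as the cut, the count was also 13, but Peg10 took the place of Igf2. In PargC-3 Igf2 was at 6.433, just under that array's median of 6.442. With the 99th percentile of the same receptors as the cut, Usp29 and Igf2r were the 2 genes above it in all embryos.

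**Figure D1:**
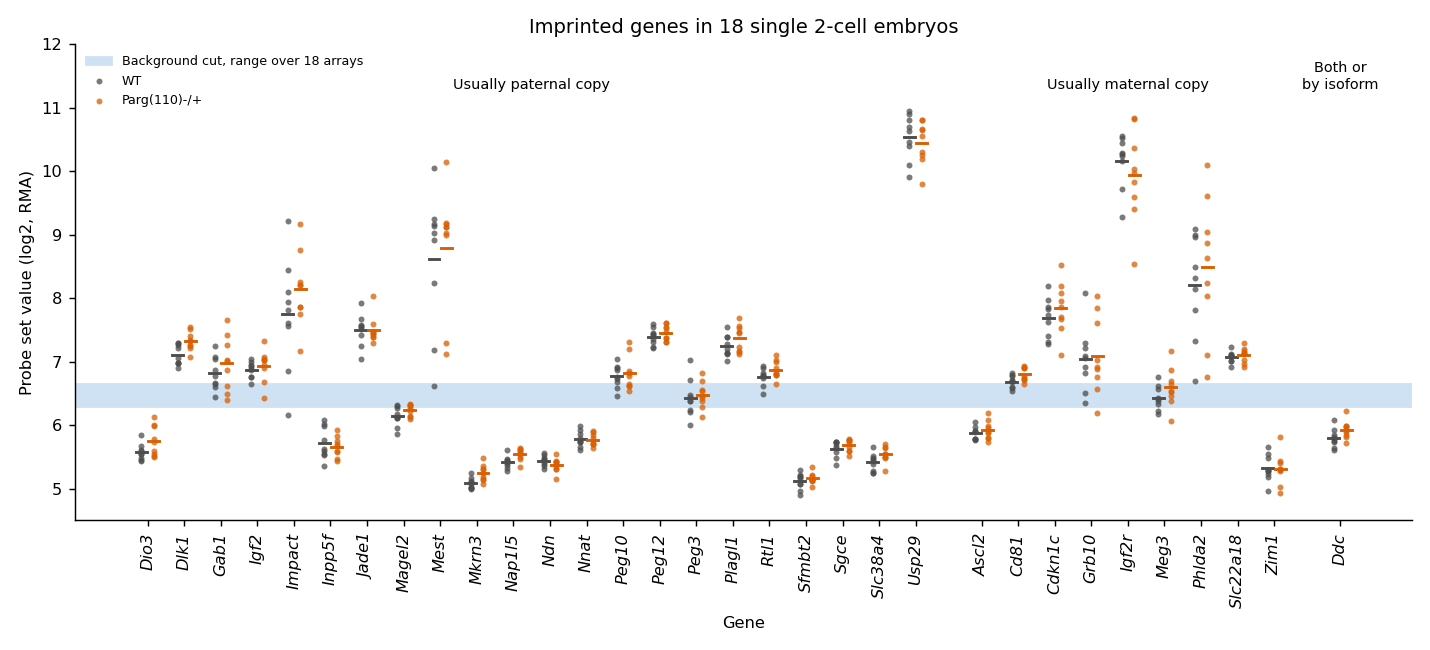
Probe set values (log2, RMA) of the 32 measured imprinted genes in 9 WT (grey) and 9 Parg(110)-/+ (orange) embryos, by the parental copy usually expressed; each point is 1 embryo and bars are group means. The blue band is the background cut over the 18 arrays (6.28 to 6.65); 13 genes exceeded their array's own cut in every embryo, Mest spread from 6.61 to 10.14, and the 2 genotypes overlapped for every gene.

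Usp29 and Peg3, neighbours on chromosome 7, fell into different groups of this classification. Usp29 encodes a ubiquitin-specific protease and Peg3 a zinc finger DNA-binding protein, and both are usually read from the paternal copy. Their annotated starts face away from each other across 96 bases (RefSeq, build GRCm38.p6, chr7:6730463-6730558, plus strand). That stretch is shown because 1 short interval separates a gene above the cut in every embryo from one with values on both sides of it. CpG positions, where methylation marks are placed, are in capitals, and there are 3.
Peg3-Usp29 interval: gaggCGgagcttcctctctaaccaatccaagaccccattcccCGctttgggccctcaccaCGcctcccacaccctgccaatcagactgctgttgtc
Usp29 ranged from 9.91 to 10.95 (median 10.62) in WT embryos and from 9.80 to 10.81 (median 10.54) in Parg(110)-/+ embryos, always above background. Peg3 ranged from 6.00 to 7.03 (median 6.38) in WT and from 6.13 to 6.82 (median 6.46) in Parg(110)-/+ embryos, above its array's cut in 7 of 18. The highest Peg3 value, 7.03, was that of WT3-3. Over 18 embryos the 2 genes were not detectably correlated (Pearson r = 0.17, permutation p = 0.502; Spearman rho = 0.04, p = 0.86). Neither gene's genotype difference passed the threshold, at -0.09 ± 0.16 for Usp29 and 0.05 ± 0.12 for Peg3 (SE, adjusted p = 0.838 and 0.901).

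The members that differed most between embryos were Mest, Phlda2, Impact and Igf2r, with SDs over the 18 embryos of 1.00, 0.94, 0.75 and 0.58. Grb10 followed with 0.54. These 5 were the members whose SD exceeded 0.48, the 95th percentile for olfactory receptor probe sets. Among all probe sets the median SD was 0.20 and the 90th percentile 0.76, which only Mest and Phlda2 of the members exceeded. The SD of Grb10 was at percentile 81.6 of all probe sets, so SDs above 0.48 were common on the array. In each of the 5 genes the genotype means differed by less than the SD within either group.

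Mest, a paternal-copy gene for a protein of the alpha/beta hydrolase fold, spanned an 11.5-fold range from a value near its array's cut, 6.48. In WT embryos it ran from 6.61 (WT2-3) over a median of 9.02 to 10.05 (WT1-1), and in Parg(110)-/+ embryos from 7.13 (PargC-2) over a median of 9.11 to 10.14 (PargA-1). The low values formed no genotype: WT2-3, WT3-3 (7.18), PargC-2 and PargB-3 (7.30) were all below 8, and each of their 4 fathers also had an embryo above 9. The difference was 0.18 ± 0.46 (SE), with a 95% interval from -0.79 to 1.15 and an adjusted p of 0.901. RefSeq lists several Mest starts. The 250 bases before 2 of them (GRCm38.p6, plus strand, chr6:30737800-30738049 and chr6:30733256-30733505) are printed because they differ in the letters TGCCGC, in either orientation. This is the motif that the imprint-protecting zinc finger protein ZFP57 is known to bind when methylated, and it is set in capitals.
Mest, downstream start: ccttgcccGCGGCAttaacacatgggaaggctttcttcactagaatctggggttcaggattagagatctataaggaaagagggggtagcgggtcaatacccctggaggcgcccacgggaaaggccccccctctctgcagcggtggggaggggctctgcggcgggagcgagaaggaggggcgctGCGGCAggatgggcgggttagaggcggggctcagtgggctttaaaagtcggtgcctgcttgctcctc
Mest, upstream start: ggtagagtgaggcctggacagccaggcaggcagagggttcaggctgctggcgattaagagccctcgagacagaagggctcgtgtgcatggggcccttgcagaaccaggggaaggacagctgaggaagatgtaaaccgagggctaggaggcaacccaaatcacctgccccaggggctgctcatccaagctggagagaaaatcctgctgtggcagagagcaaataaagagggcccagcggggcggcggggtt
The downstream window holds 2 matches and 14 CpGs and the upstream one 0 matches and 7 CpGs. TGCCGC on either strand occurs in 11.6% of all 32851 start windows of 300 bases and in 18.9% of the 53 windows of listed imprinted genes. The motif holds a CpG, and the median window had 7 CpGs over all genes and 15 over the imprinted ones. Of the 10 matching windows, 2 are the same Mest stretch shifted by 3 bases. The motif was found for 9 of the 32 listed genes with a window, Mest, Nnat, Nap1l5, Zim1, Snrpn, Igf2, Plagl1, Grb10 and Meg3. These are not the 32 measured genes. H19, Peg10, Rtl1, Impact, Cdkn1c and Sgce had no window, while the unmeasured Snrpn, Gnas, Ube3a, Kcnq1ot1 and Zrsr1 did. A share per gene over all genes was not computed. A match is a description of the letters, not a bound site.

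Impact, a paternal-copy gene whose product restrains the translation regulator GCN2, had its lowest value, 6.16, in the same WT2-3 embryo and was below background only there. The other WT embryos lay between 6.85 and 9.21 and the Parg(110)-/+ embryos between 7.17 and 9.17 (medians 7.82 and 8.20 for all 9 embryos of each genotype). Of 9 Parg(110)-/+ embryos, 8 were above the WT mean, but the difference of 0.39 ± 0.33 (SE) had an adjusted p of 0.667. The 95% interval reached from -0.31 to 1.10, and the difference was 0.19 without WT2-3 and 0.58 without WT1-3.

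Among maternal-copy genes, Phlda2, which limits placental growth, varied 10.5-fold from a value near its array's cut, 6.51. It lay between 6.70 (WT3-2) and 9.09 (WT3-3) in WT embryos, with a median of 8.31, and between 6.77 (PargC-1) and 10.10 (PargB-3) in Parg(110)-/+ embryos, with a median of 8.63. Both the lowest and the highest WT embryo were thus from father WT3. The difference was 0.28 ± 0.43 (SE, 95% interval -0.62 to 1.19, adjusted p = 0.819), and it was 0.08 without PargB-3 and 0.50 without PargC-1.

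Igf2r, the receptor that clears the growth factor IGF2, was high in every embryo. WT values lay between 9.28 and 10.56 (median 10.27), and Parg(110)-/+ values between 8.54 (PargB-1) and 10.84 (PargB-3), with a median of 9.97. The lowest and the highest of the 18 embryos were thus both of father PargB. The difference was -0.23 ± 0.26 (SE, adjusted p = 0.753), and -0.06 without PargB-1. Igf2, the ligand, ranged narrowly from 6.65 to 7.04 (median 6.90) in WT and from 6.43 (PargC-3) to 7.32 (PargA-3) with a median of 7.03 in Parg(110)-/+ embryos. The Igf2 difference was 0.07 ± 0.09 (SE, adjusted p = 0.8). Grb10, an adaptor that dampens insulin and IGF receptor signalling, ran from 6.35 to 8.07 (median 7.06) in WT and from 6.19 to 8.04 (median 6.92) in Parg(110)-/+ embryos.

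**Figure D2:**
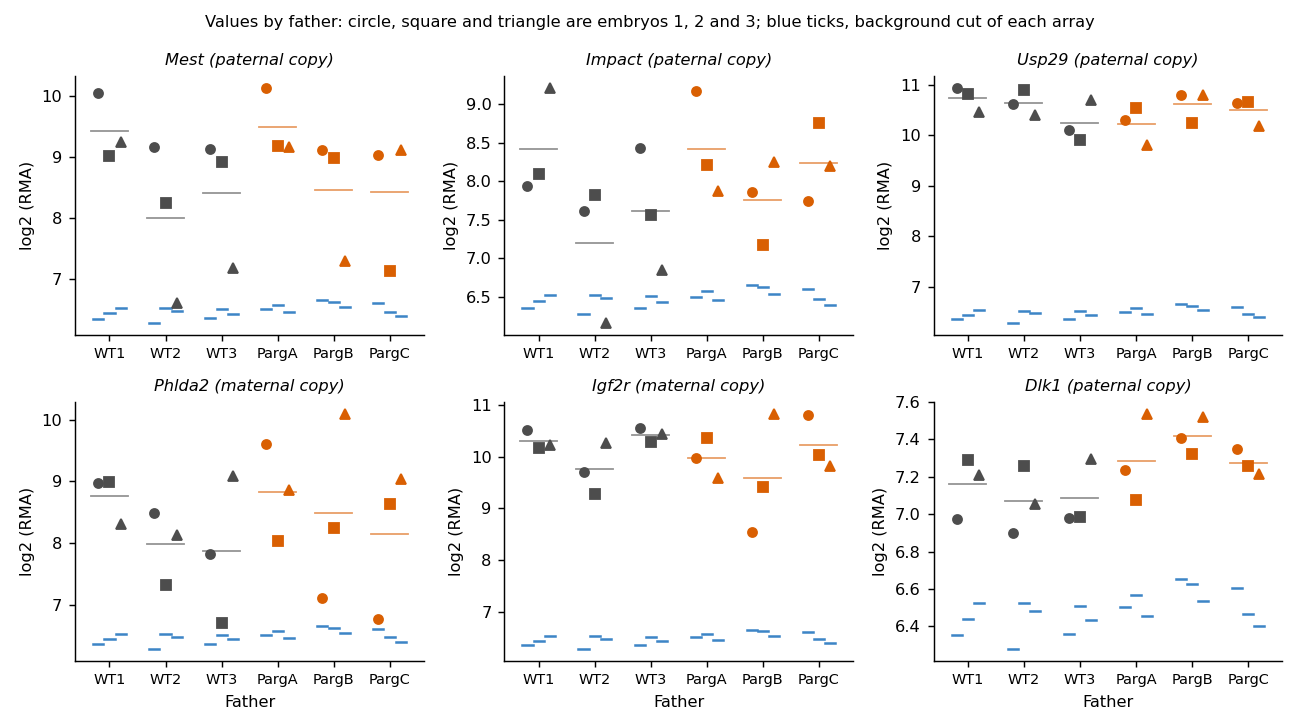
Values (log2, RMA; each panel has its own axis) of 6 imprinted genes by father, 3 embryos per father; grey is WT, orange is Parg(110)-/+, thin lines are father means and blue ticks are the background cut of each array. Low Mest values occurred with fathers of both genotypes. Dlk1 and Impact were each higher than the WT mean in 8 of 9 Parg(110)-/+ embryos, a count that other members not shown here shared.

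Cdkn1c, encoding the cyclin-dependent kinase inhibitor p57KIP2, lies in the same maternal-copy domain as Phlda2. It ranged from 7.27 to 8.19 (median 7.73) in WT and from 7.10 to 8.53 (median 7.86) in Parg(110)-/+ embryos, and the means differed by 0.16 ± 0.17 (SE, adjusted p = 0.727). Embryos with more Cdkn1c signal also had more Phlda2 signal, and this was the 1 pair called of 8, which were pairs of neighbours or of genes whose imprint rests on a histone mark. Pearson r was 0.67 over 18 embryos (permutation p = 0.00228, adjusted over the 8 pairs 0.0182) and Spearman rho 0.65 (p = 0.00467, adjusted 0.0374). Within genotypes r was 0.85 in WT and 0.55 in Parg(110)-/+ embryos (n = 9 each). Without PargA-1 and PargB-1, the embryos farthest from the Cdkn1c median, r was 0.55 (permutation p = 0.0257) and the adjusted p was 0.104, just over the threshold of 0.1. Both are Parg(110)-/+ embryos, so the value within WT does not include them. The 2 genes were read on the same arrays from the same amplified RNA, and the part of embryo-to-embryo RNA differences in their correlation was not tested.

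The other pairs did not pass the threshold. Dlk1 and Meg3, which are read from opposite copies of 1 domain, had r = 0.52 (permutation p = 0.026, adjusted 0.104), with 0.22 in WT and 0.60 in Parg(110)-/+ embryos. The remaining values of r were 0.37 for Peg3 and Zim1, 0.34 for Grb10 and Ddc, 0.24 for Peg10 and Sgce, -0.10 for Slc38a4 and Jade1 and -0.25 for Sfmbt2 and Gab1 (adjusted p between 0.327 and 0.704). Zim1, Ddc, Sgce, Sfmbt2 and Slc38a4 were under the background cut in all embryos, which limits these pairs.

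**Figure D3:**
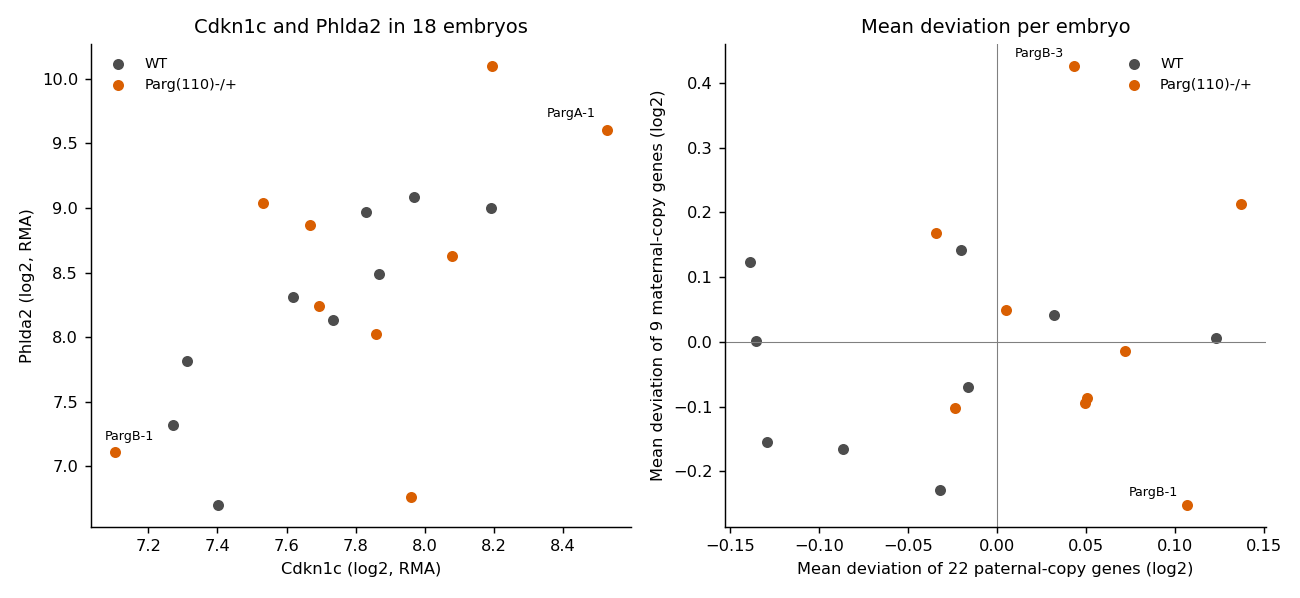
Left, Cdkn1c against Phlda2 (both log2, RMA) in 18 embryos, r = 0.67, with the 2 embryos farthest from the Cdkn1c median named. Right, for each embryo, the mean deviation (log2) from the means over all embryos of 22 paternal-copy genes on the horizontal and of 9 maternal-copy genes on the vertical axis; WT embryos are grey and Parg(110)-/+ embryos orange, and PargB-1 (-0.25) and PargB-3 (0.43) lie at opposite ends of the vertical axis.

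No imprinted gene was called between genotypes (0 of 32 at an adjusted p under 0.1, limma over all 28815 probe sets; percent called among all probe sets, 0). The smallest adjusted p of a member was 0.362. At an unadjusted p under 0.05 there were 4 of 32 (12.5%), Mkrn3, Dlk1, Nap1l5 and Cd81, against 10.5% of all probe sets, so the share of members was near the background. All 4 were higher in Parg(110)-/+ embryos, as were 8.96% of all probe sets, while 1.51% were lower. By sign alone 25 of 32 members (78.1%) had the higher mean in Parg(110)-/+ embryos, against 67.1% of all probe sets. The median difference was also above 0 outside the members: it was 0.05 for all probe sets, 0.05 for olfactory receptors and 0.08 for the members. This shift was uneven over the array. The median was 0.02 for the 12 oocyte markers and -0.01 for the 24 genes that act on imprints, listed below. For the 5 blood markers and the 6 sperm markers it was 0.09 each. With arrays set to equal medians the median over all probe sets was -0.01, that of members 0.03, and 18 of 32 members were higher. The WT and Parg(110)-/+ values overlapped for all 32 members (the groups did not overlap in 0.0104% of all probe sets).

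Of the 4, Dlk1 and Cd81 were above background throughout. Dlk1, a Notch-like transmembrane protein of the paternal copy, lay between 6.90 and 7.29 (median 7.05) in WT and between 7.08 and 7.54 (median 7.32) in Parg(110)-/+ embryos. Its difference was 0.22 ± 0.07 (SE, unadjusted p = 0.00773, adjusted p = 0.362), and 8 of 9 Parg(110)-/+ embryos were above the WT mean. The same count held for Impact, Rtl1, Cd81, Ddc, Nap1l5, Slc38a4, Mkrn3 and Sfmbt2. Cd81, a tetraspanin of the maternal copy whose imprinting is known mainly in placenta, lay between 6.53 and 6.82 (median 6.69) in WT and between 6.64 and 6.93 (median 6.78) in Parg(110)-/+ embryos, a difference of 0.12 ± 0.05 (SE, unadjusted p = 0.0394, adjusted p = 0.463). Mkrn3, a RING finger ubiquitin ligase, and Nap1l5, of the nucleosome assembly family, were below the cut in all embryos. Mkrn3 lay between 5.0 and 5.25 (median 5.07) in WT and between 5.07 and 5.49 (median 5.25) in Parg(110)-/+ embryos, and Nap1l5 between 5.27 and 5.61 (median 5.42) and between 5.34 and 5.63 (median 5.57). Their differences were 0.17 ± 0.06 and 0.12 ± 0.05 (SE, adjusted p = 0.362 and 0.427). With equal array medians, 2 of 32 members had an unadjusted p under 0.05, Ndn and Dlk1, against 6.22% of all probe sets. Unlike Dlk1, Ndn was lower in Parg(110)-/+ embryos, by -0.07 ± 0.05 (SE, adjusted p = 0.622, limma) in the deposited values, and it was below the cut in all embryos.

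**Figure D4:**
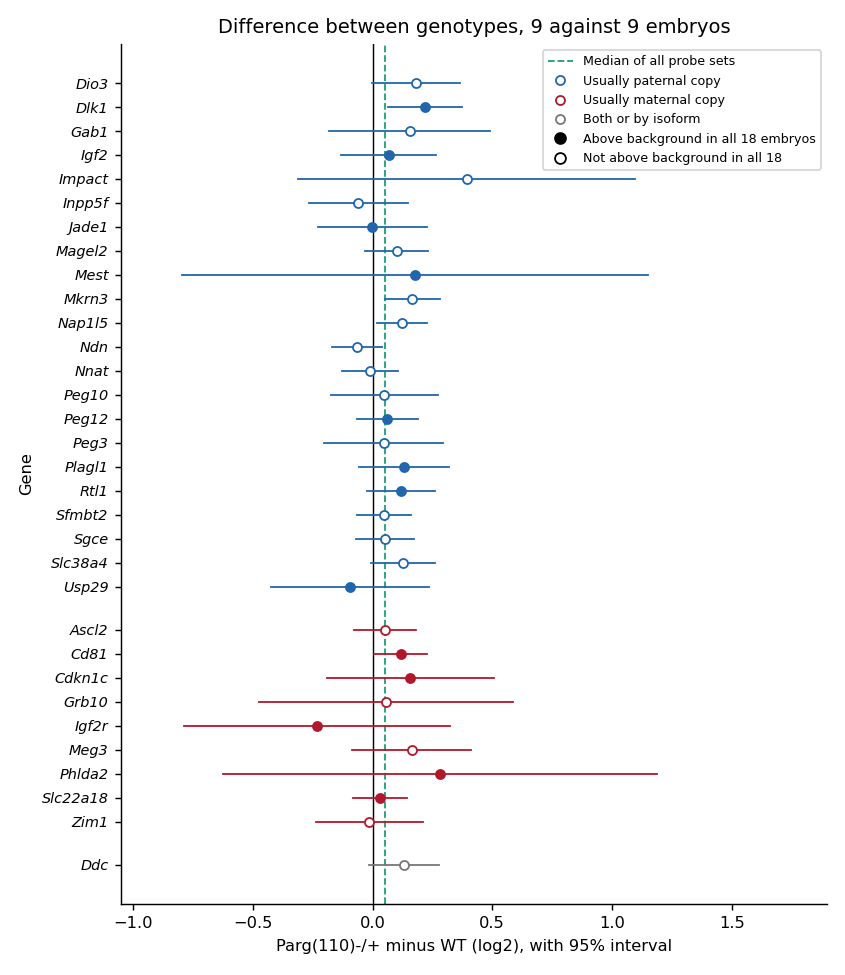
Difference between genotypes (Parg(110)-/+ minus WT, log2) of each measured imprinted gene with its 95% interval from limma, 9 against 9 embryos; blue, red and grey mark paternal-copy, maternal-copy and Ddc, and filled points are genes above background in all 18 embryos. The interval of 28 of 32 genes holds 0 and the dashed line is the median of all probe sets, 0.05.

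Of the other genes above background in all embryos, Peg12, a Frat family inhibitor of GSK3, ran from 7.22 to 7.59 in WT (median 7.42) and from 7.30 to 7.61 in Parg(110)-/+ embryos (median 7.47), a difference of 0.06 ± 0.06 (SE). Plagl1, a zinc finger transcription factor, ran from 7.01 to 7.55 (median 7.20) and from 7.12 to 7.69 (median 7.45), a difference of 0.13 ± 0.09. Jade1, a PHD finger subunit of HBO1 acetyltransferase complexes, ran from 7.04 to 7.93 (median 7.54) and from 7.29 to 8.04 (median 7.43), and its mean was 7.5 in both genotypes (SE of the difference 0.11). These 3 covered less than 2-fold between their lowest and highest embryo. Slc22a18, of the organic cation transporter family, ran from 6.91 to 7.24 (median 7.10) and from 6.92 to 7.29 (median 7.13), a difference of 0.03 ± 0.05. Rtl1, a retrotransposon-derived protein, ran from 6.49 to 6.93 (median 6.77) and from 6.64 to 7.10 (median 6.81), a difference of 0.12 ± 0.07. Adjusted p was between 0.535 and 0.999 for these 5 genes. Rtl1 overlaps its neighbour on the other strand, and how strand was handled in amplification is not given in the sources used here, so its signal cannot be assigned to Rtl1 with certainty.

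To compare the parental classes, the genotype differences were summarized by class. The median was 0.08 over 22 paternal-copy genes, of which 17 were higher and 5 lower in Parg(110)-/+ embryos, and 0.06 over 9 maternal-copy genes, of which 7 were higher and 2 lower. The medians differed by 0.03, which was not tested. Inpp5f, Igf2r, Grb10 and Cd81 were marked here as imprinted only in certain tissues or isoforms, a list that may be incomplete. Without them the medians were 0.10 over 21 paternal-copy and 0.10 over 6 maternal-copy genes. Over the 11 paternal-copy and 7 maternal-copy genes above background in at least 9 embryos they were 0.12 and 0.12. Per embryo, the mean deviation of the paternal-copy genes was -0.05 ± 0.09 in WT and 0.05 ± 0.06 in Parg(110)-/+ embryos (SD, n = 9), and that of the maternal-copy genes -0.03 ± 0.13 and 0.03 ± 0.21. The paternal minus maternal difference was -0.01 ± 0.15 in WT and 0.01 ± 0.22 in Parg(110)-/+ embryos. Olfactory receptors moved the same way, from -0.03 to 0.03. PargB-1 had the highest paternal minus maternal difference of the 18 embryos, 0.36, and PargB-3, by the same father, the lowest, -0.38. The maternal-copy mean rests on 9 genes of unlike SD. Against means of 10.05 and 8.34, Igf2r and Phlda2 were at 8.54 and 7.11 in PargB-1 and at 10.84 and 10.10 in PargB-3. Grb10, at 7.61 and 6.88 against a mean of 7.07, and Zim1 went the other way in both embryos. The median SD over the 18 embryos was 0.19 for paternal-copy and 0.26 for maternal-copy genes, a difference that was not tested.

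Fathers were then examined separately. Against the 9 WT embryos, which all 3 comparisons share, no member was called for PargA (0% of all probe sets called), PargB (0.0139%) or PargC (0.0104%). At an unadjusted p under 0.05 there were 0, 3 and 3 of 32 members (0%, 9.38% and 9.38%), against 5.32%, 12.8% and 7.24% of all probe sets. For PargB these were Cd81, Dlk1 and Plagl1, with differences of 0.22 ± 0.07, 0.31 ± 0.10 and 0.33 ± 0.11 (SE, adjusted p between 0.25 and 0.286, limma). For PargC they were Dio3, Mkrn3 and Slc38a4, with 0.35 ± 0.11, 0.21 ± 0.08 and 0.20 ± 0.09 (SE, adjusted p between 0.514 and 0.644), and these 3 genes were below background in every embryo. Without father PargB the members with an unadjusted p under 0.05 between genotypes were Mkrn3 and Dio3, 2 of 32 against 6.53% of all probe sets in that comparison.

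Differences among fathers of 1 genotype were no clearer. The F test over 3 fathers called no member among WT fathers (0.00347% of all probe sets) or Parg(110)-/- fathers (0.0104%). At an unadjusted p under 0.05 it gave Sgce and Jade1 among WT fathers, 2 of 32 (6.25%) against 4.39% of all probe sets, and none among Parg(110)-/- fathers against 5.34%. Each Parg(110)-/+ embryo was also set alone against the 9 WT embryos. None of the 288 member values was called, where 0.865% of all probe set values were, and none of the 288 values of WT embryos set against the other 8, where 0.731% were.

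A list of 24 genes whose products are known to lay down, protect or remove imprints was also examined. All 24 were measured and 21 exceeded background in every embryo, against 37.0% of all probe sets, among them Zfp57 (12.23 to 12.55), Dppa3, which protects the maternal genome from demethylation, and the maintenance methyltransferase Dnmt1 (10.40 to 10.95). None was called between genotypes and 1 of 24 had an unadjusted p under 0.05, against 10.5% of all probe sets, while 11 were higher and 13 lower in Parg(110)-/+ embryos, against 67.1% of all probe sets higher. That gene was Rbbp4, a histone-binding subunit of several chromatin complexes, with a mean of 8.33 ± 0.31 in WT and 7.77 ± 0.38 in Parg(110)-/+ embryos (SD, n = 9), a difference of -0.56 ± 0.16 (SE, unadjusted p = 0.00253, adjusted p = 0.362, limma). The next were Trim28, the corepressor recruited by ZFP57, at -0.42 ± 0.21 (SE, adjusted p = 0.49), and Smchd1 at 0.37 ± 0.21 (SE, adjusted p = 0.53).

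A further list of 40 imprinted genes gave 35 with a probe set. Of these 12 exceeded background in all embryos and 12 in none, none was called, and 23 were higher and 12 lower in Parg(110)-/+ embryos with a median of 0.05, the median of all probe sets. At an unadjusted p under 0.05 there were 2 of 35, against 10.5% of all probe sets, Ins2 (0.13 ± 0.05, SE) and Klf14 (0.19 ± 0.08, SE), with adjusted p of 0.422 and 0.465, and Kcnq1 (0.23 ± 0.11, SE) followed with 0.483. Insulin 2 was below background in all embryos.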

How the data were processed

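RNA of 18 single 2-cell embryos was amplified (WT-Ovation One-Direct kit) and hybridized to Affymetrix Mouse Gene 1.0 ST arrays. The deposited values are log2 signals that the authors obtained with RMA (background correction, quantile normalization, probe set summarization) in Partek, per the labels and the study's methods. Software versions are not given in the sources used here. Samples were grouped by the genotype label. Genes were named from the platform annotation, where 21780 probe sets name 1 gene, 1605 several and 5430 none. All columns of values were mapped to a sample.

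The members and lists were chosen with earlier results of these data known. Every measured member had exactly 1 probe set naming it alone. Named in the text are all members, with values for those above background in all embryos, the 4 with the smallest genotype p, the 4 with the largest SD, and, from the 2 further lists, the 3 with the smallest p each. Peg3, Grb10, Meg3, Dio3, Slc38a4, Sgce and Ndn were given values, or named for an unadjusted p under 0.05, after their values were seen. Genotype, family (3 embryos against 9), single-embryo (1 against 9) and father F tests were made with limma 3.58.1 (R 4.3.3), two-sided, over all 28815 probe sets, with Benjamini-Hochberg adjustment and a threshold of 0.1, as in the study's methods. The genotype test was also run on simulated data with independent noise and differences far larger than those of the members. That run does not show how the test performs on differences of the size seen here. Pairs of genes of 1 locus or kind of imprint were compared by permutation tests with 100000 resamples (numpy 2.4.6), adjusted over 8 pairs, and 4 of 12 planned pairs lacked a probe set. P-values measure the spread between these embryos, 3 of which share each father. Arrays carry no read depth, and their number limits the precision. Scan days were not used here. Promoter sequences are from RefSeq (GRCm38.p6), and the files themselves carry no coordinates. Alternatives were equal array medians, a second quantile normalization, father as a block, means per father, a plain one-way test, bright probe sets only, and leaving out embryos or fathers.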

Additional observations from a re-analysis of the deposited data

Results flagged for a closer look

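One value stood apart from its group. Among the 9 Parg(110)-/+ embryos, Jade1 was highest in PargB-1 at 8.04, and the nearest embryo was at 7.59. The WT embryo WT2-3 was closer, at 7.93, so the value stood apart only within its genotype. The gap was 0.605 of the range of the group, above the critical value of Dixon's outlier test for 9 samples. In all, 64 groups (32 genes in 2 genotypes) were examined, and chance flags about 1 in 20 groups, a rate that 1 flag in 64 does not exceed. PargB-1 also had the lowest Igf2r value of all embryos, 8.54, and the most probe sets called against the WT embryos, 2.17%.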

How the results depend on the processing

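Under every alternative run, 0 members were called between genotypes, and under the alternatives run for them also 0 between families, single embryos and fathers. At an unadjusted p under 0.05 the 4 members (10.5% of all probe sets) became 2 with equal array medians (6.22% of all probe sets), 2 with means per father (7.65%), 2 without father WT2 (8.26%), 2 without father PargB (6.53%) and 1 among bright probe sets only (9.27%), where 18 members were tested. The share over all probe sets thus fell in each of these settings too. Leaving out each embryo gave 3 to 6, against 8.35% to 12.6% of all probe sets. The count moved furthest without PargA-1, to 6 members (11.1% of all probe sets). It was 3 without WT1-1 (8.58%), WT2-1 (8.35%), WT2-3 (10.3%) or PargB-1 (9.59%). The count of members above background in all embryos, 13, was 2 with the 99th percentile of olfactory receptors. The paternal minus maternal median, 0.03, ran from -0.04 to 0.05 when single embryos were left out. The locus pair called became 0 without the 2 embryos farthest from the median (adjusted p = 0.104 for Cdkn1c and Phlda2).

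Some genotype differences with no call changed sign. The difference was -0.014 for Igf2 without father PargA. For Peg3 it was -0.011 with equal array medians, -0.0062 with a second quantile normalization, -0.020 without father WT1 and -0.035 without father PargB, and from -0.0078 to 0.12 with single embryos left out. For Mest it was -0.13 without father WT2 and -0.17 without father PargA, and from -0.073 to 0.39 with single embryos left out. For Usp29 it was 0.0077 without father WT1 and 0.022 without father PargA. For Slc22a18 it was -0.026 with equal array medians and -0.009 with a second quantile normalization. For Jade1 it was 0.049, 0.081, 0.015 and 0.028 without fathers WT1, WT2, PargA and PargC, and from -0.068 to 0.053 with single embryos left out. The cause was not tested. Father as a random block (correlation -0.02 within fathers) and the plain one-way test gave the same 4 members. The mean of all probe sets of a gene gives no other value, since each member has 1. No paired analysis was possible because the embryos' labels do not pair them across genotypes.

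With 9 embryos per genotype the SE of a member's difference was between 0.05 and 0.46.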
